A study of Bos taurus with 30 samples.

Results

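Among 30 miRNA libraries of the bovine arcuate nucleus (ARC), 9 carried a group of 7 miRNAs at far higher levels than the other 21, and these 9 are called the marker-high libraries here. They were chosen by the measured values alone. For each library a marker score was taken as the mean of log2(CPM + 0.25) over miR-375, miR-182, miR-183, miR-141, miR-200a, miR-200c and miR-429, where CPM is the read count of a miRNA as the authors scaled it to a common library size, and the 9 libraries with the highest scores formed the high class and the other 21 the low class. The prefix bta-, for Bos taurus, is left out of the miRNA names. No label separates the 2 classes: all 30 libraries were labelled as ARC tissue of Holstein-Friesian bull calves, 1 library per calf.

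The study compared 15 calves on a high (HI) with 15 calves on a moderate (MOD) plane of nutrition, to ask how early feeding acts on the ARC, a small region at the base of the hypothalamus that reads metabolic state and takes part in the control of reproduction. From 2 weeks of age HI calves received 1.5 kg of milk replacer, made up to 10 litres, per day with concentrate ad libitum. MOD calves received 0.5 kg of milk replacer, made up to 4 litres, per day with 0.5 kg of concentrate. Tissue was taken at 12 weeks of age, and the RNA is that of whole tissue pieces.

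The 7 score miRNAs come from a small number of well-known transcripts. The miR-200 family (miR-200a, miR-200b and miR-429 from one cluster, miR-200c and miR-141 from another) is abundant in epithelial cells and acts against the ZEB transcription factors. The cluster of miR-183, miR-96 and miR-182 is best known from sensory organs and is also abundant in the pituitary and pineal glands, and miR-375 is typical of endocrine cells, among them pancreatic islet cells and cells of the anterior pituitary. The hypothalamus and the pituitary are joined by the pituitary stalk, next to the ARC, and neurons of the hypothalamus are themselves rich in miR-124, miR-9, miR-128 and miR-138.

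The scores ran from 7.83 to 11.9 (median 10.9) in the high class and from 2.69 to 5.60 (median 3.68) in the low class. HI calf A37824 had the highest score, followed by MOD calf A41971 at 11.8, MOD calf A73759 at 11.5, HI calf A31979 at 11.1 and HI calf A17855 at 10.9. A step then led to MOD calf A57867 at 9.64, HI calf A93744 at 9.22 and HI calf A42931 at 9.15. The library just inside the limit was MOD calf A21978 at 7.83, and the one just outside was MOD calf A12937 at 5.60, a gap of 2.23 on the log2 scale. As a share of the deposited total of each library, the 7 miRNAs took 0.549 to 6.35% (median 3.74%) in the high class and 0.0140 to 0.180% (median 0.0845%) in the low class.

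The values that chose the libraries are given as a description, with no test. For miR-375, CPM ran from 3192 to 47575 (median 20624) in the 9 high libraries and from 75.7 to 1268 (median 606) in the 21 low libraries. The corresponding CPM of miR-182 ran from 1969 to 39239 (median 14203) in the high class and from 33.8 to 605 (median 88.0) in the low class. Every one of the 7 score miRNAs was higher in all 9 high libraries than in any low library, and these are the values on which the libraries were selected.

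For miR-141, CPM spanned 309.6 to 6120.2 (median 2994) in the high class and 7.27 to 62.3 (median 17.7) in the low class, and miR-183 spanned 227 to 4964 (median 1609) and 6.93 to 63.5 (median 14.04). For miR-200a the 2 ranges were 62.9 to 1241 (median 662) and 0.558 to 10.7 (median 2.20). miR-200c ran from 36.0 to 613 (median 324) against 0.781 to 8.06 (median 1.90), and miR-429 from 30.4 to 548 (median 282) against 0.131 to 4.33 (median 1.02). In the low class miR-375 was therefore readily measured in each library, whereas miR-200a, miR-200c and miR-429 lay at only a few CPM.

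**Figure D1:**
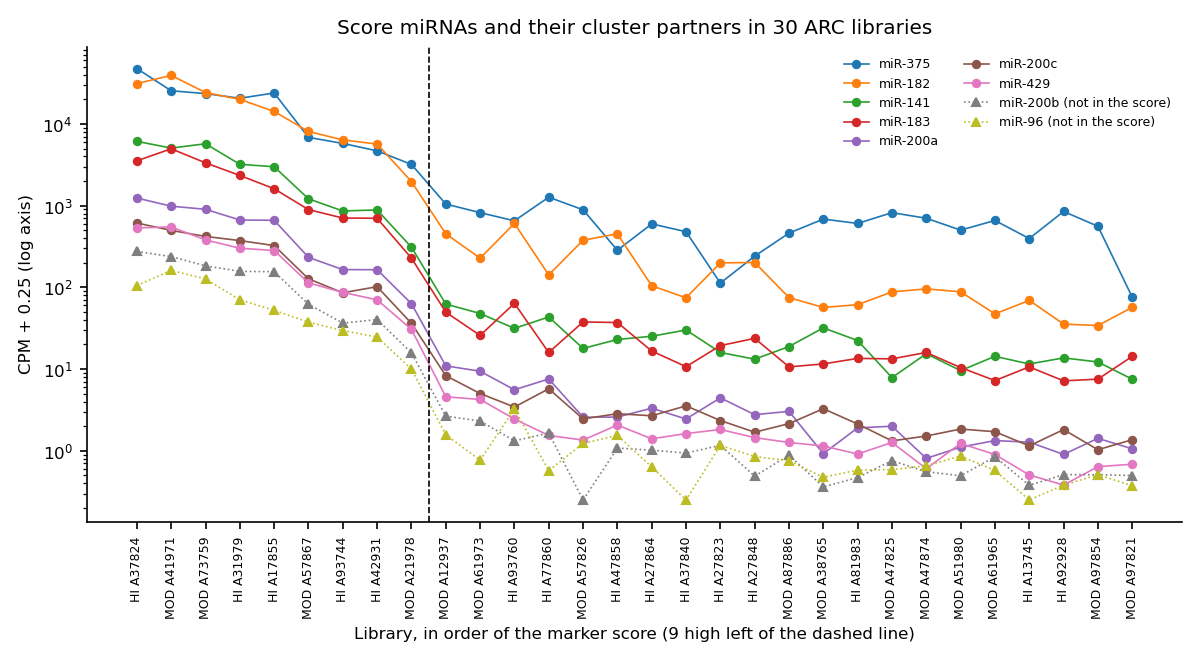
Levels of the 7 score miRNAs (circles) and of miR-200b and miR-96 (triangles), as CPM + 0.25 on a log axis, in each of the 30 libraries ordered by marker score, with the diet and the code of the calf below. The 9 high libraries stand left of the dashed line, and all 9 miRNAs drop together from the left to the line, while miR-375 is at least 75.7 CPM in every low library.

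The partners miR-200b and miR-96, which come from the same transcripts but did not enter the score, are not independent of it, and their values are likewise given without a test. miR-200b ran from 15.5 to 275 (median 155) CPM in the high class and from 0 to 2.41 (median 0.508) in the low class. The range of miR-96 was 9.76 to 161 (median 52.2) CPM in the high class and 0 to 2.99 (median 0.384) in the low class. Neither showed any overlap between the classes.

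Within the high class the levels of these 9 miRNAs varied widely and their proportions less. The highest library exceeded the lowest 14.9 times for miR-375 and 21.8 times for miR-183, with the other 7 between these values. The ratio of miR-182 to miR-183, which are cut from one transcript, stayed between 7.25 and 9.04 in the high class and ranged from 4.04 to 12.2 in the low class. The ratio of miR-375 to miR-182, which come from separate genes, lay between 0.649 and 1.68 (median 0.972) in the high class. In the low class that ratio ran from 0.565 to 24.0 (median 5.73), with miR-375 above miR-182 in most low libraries.

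Neither the diet nor the sequencing of a library was used to choose it, and both could be set against the classes. The high class held 5 HI and 4 MOD calves and the low class 10 HI and 11 MOD calves (2-sided Fisher's exact test, p = 1). Read totals recovered from the deposited values ran from 7692951 to 21083250 in the high class and from 6291376 to 18767211 in the low class, and 6 shallower and 3 deeper libraries stood in the high class against 15 and 6 in the low class (Fisher's exact test, p = 1). An earlier look at these data had found the libraries of the 9 lowest animal codes to stand apart. These made up 4 of the 9 high and 5 of the 21 low libraries (Fisher's exact test, p = 0.389), and with the class drawn at the 8 or at the 10 highest scores no such p fell below 0.115. With 9 libraries in one class these tests can show only large imbalances.

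The comparison of all other miRNAs asked what else differed between the 2 classes. Of 1030 miRNAs in the table, 497 reached the minimum level of about 10 reads in at least 9 libraries, and 488 of these were neither score miRNAs nor their partners. Each was tested with limma on log2(CPM + 0.25), with diet as a term and Benjamini-Hochberg adjustment over the 497, and a miRNA is said to be higher, lower or to have passed the test where the adjusted p was below 0.1 and the fold above 1.5. Because the classes were drawn from values of the same libraries, the p-values describe these 2 classes and no treatment. A minimum in 9 libraries can be met through the high class alone, and with the minimum asked of 9 low libraries 474 of the 488 remained.

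Of the 488 other miRNAs, 50 (10.2%) were higher and 66 (13.5%) were lower in the high class. Of the 50, 5 did not reach the minimum in 9 low libraries and were admitted through the class where they were high: miR-205, miR-1247-3p, miR-2318, miR-27a-5p and miR-6518. With the minimum asked of 9 low libraries 45 were higher and 66 lower. Without the threshold on fold, 130 were higher and 163 lower. The median log2 difference over the 488 was -0.05. Where the libraries were put on their plain read totals in place of the authors' TMM factors, the median moved to -0.27 and 28 were higher and 124 lower, so that 18.4% of the calls were in the higher direction against 43.1% before. Directions are therefore read relative to this shift. The medians of the pituitary endocrine, ependyma and choroid plexus, epithelial, skeletal muscle and let-7 lists described below were above 0 on the authors' scale and below 0 on plain read totals (-0.22, -0.07, -0.00246, -0.14 and -0.21). In 8 miRNAs (1.64%) every high library lay above every low library, miR-205 among them, and in 0 (0%) did every high library lie below every low library.

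**Figure D2:**
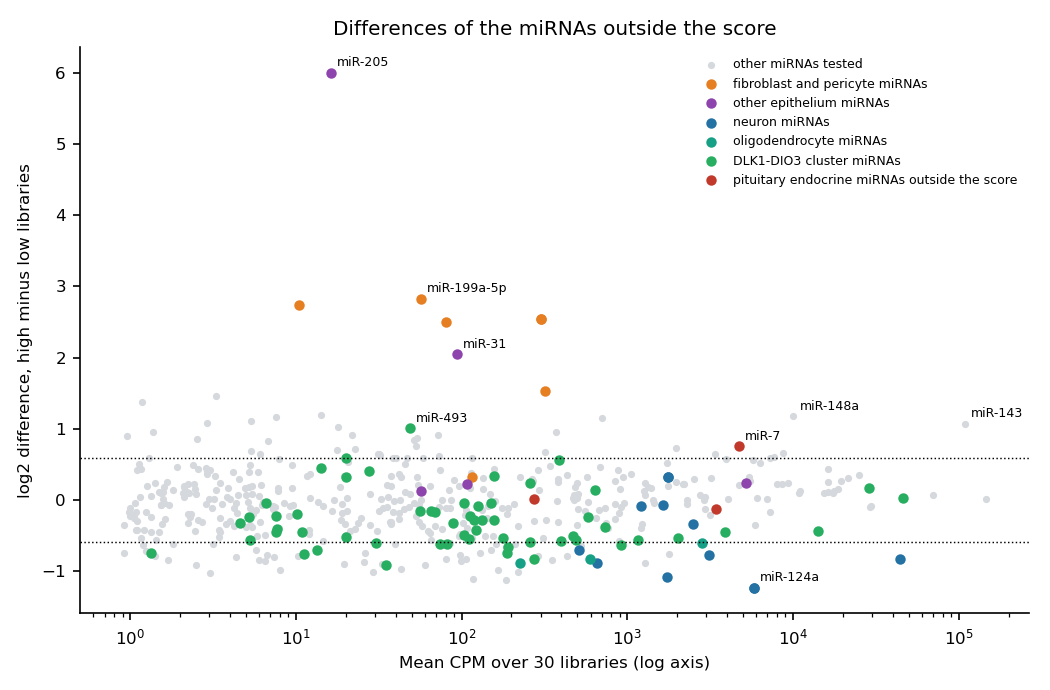
The log2 difference (high minus low) of each of the 488 other miRNAs against its mean CPM over 30 libraries on a log axis, with 6 of the miRNA lists coloured. The dotted lines mark a fold of 1.5 in either direction, and miR-205, the miR-199 group, miR-214 and miR-31 stand above all others, with miR-124a at the lower edge.

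The widest distance between the classes was that of miR-205, an epithelial miRNA known best from skin and other stratified or glandular epithelia. Its CPM in the high libraries, in order of falling score, was 152, 56.3, 118, 34.0, 32.7, 20.1, 39.1, 17.3 and 8.44. In the low libraries it ran from 0 to 1.56 (median 0.245). The classes did not overlap: the lowest high library stood on 70 reads, whereas 14 of the 21 low libraries held 3 reads or fewer. Only 3 of the 21 low libraries reached the minimum level, so that miR-205 entered the comparison through the high class, where it is high, and had to differ. Its values are therefore given as a description, with no test. Its log2 difference was 6.0 with the pseudocount of 0.25 and 4.80 with a pseudocount of 1 CPM. miR-205 is not a partner of the score miRNAs by transcript.

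A second miRNA of epithelia, miR-31, ran from 75.3 to 454 (median 168) CPM in the high class and from 27.6 to 67.6 (median 39.4) in the low class, again with no overlap. Its log2 difference was 2.04 ± 0.22 (SE, here and below; limma, adjusted p = 1.15e-08). The other members of the epithelial list differed little: miR-192 by 0.23, miR-194 by 0.23 and miR-215 by 0.12 on the log2 scale, so that 2 of the 5 tested members were called higher and 0 lower. One of these calls is that of miR-205, and miR-31 was the only higher member among those that also reached the minimum in 9 low libraries. The epithelial list, like the others below, was drawn up with earlier results of these data known, and its counts are to be read beside the 10.2% of all other miRNAs that were higher and the 13.5% that were lower.

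Of the list of miRNAs of fibroblasts and pericytes, the cells of connective tissue and of the vessel wall, 6 of 7 were higher and 0 lower, with a median log2 difference of 2.54. miR-199a-3p, with 224 to 1419.7 (median 787) CPM in the high class and 57.4 to 203 (median 108) in the low class, differed by 2.54 ± 0.25 (limma, adjusted p = 1.01e-09). miR-214, which is cut from the same transcript as one of the miR-199a copies, ran from 8.13 to 52.4 (median 25.7) CPM against 1.33 to 7.36 (median 3.41), a log2 difference of 2.73 ± 0.29 (adjusted p = 4.22e-09). For both, all 9 high libraries lay above all 21 low libraries.

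The other members of that list on the miR-199 side were miR-199a-5p at 2.83, miR-199b at 2.49 and miR-199c at 2.54 on the log2 scale, none overlapping between the classes. miR-199c had almost the same values as miR-199a-3p in each library, and these names may share reads, so that they are not separate evidence. miR-10b, a miRNA of the HOX gene clusters, ran from 119 to 1666 (median 509.6) CPM in the high class and from 67.9 to 381 (median 158) in the low class, and differed by 1.53 ± 0.33 (adjusted p = 2.75e-04) with 6 of 9 high libraries above all low ones, and by 0.81 within the lowest animal codes, and it did not pass within the deeper libraries alone. Its relative miR-10a did not pass, at 0.32 ± 0.23 (adjusted p = 0.245). The summed CPM of the 7 members lay between 812 and 5071 in the high class and between 373 and 892 in the low class. In bulk tissue a larger number of cells of a type and more of a miRNA per cell cannot be told apart.

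Of the pituitary endocrine miRNAs outside the score, 1 of the 3 tested was higher. miR-7, a miRNA of neuroendocrine cells including those of the pituitary and pancreatic islets, ran from 3810.3 to 9594 (median 6907) CPM in the high class and from 1969 to 6379 (median 3789) in the low class. The classes overlapped, with 5 of 9 high libraries above all low ones, and the log2 difference was 0.75 ± 0.19 (limma, adjusted p = 0.00143). On plain read totals it was 0.52 and no longer passed the fold threshold, and within the deeper libraries alone, at 0.69, it did not pass either. miR-132, with a log2 difference of -0.12 ± 0.09, and miR-212, at 0.01 ± 0.11, are cut from one transcript and did not pass (adjusted p = 0.229 and 0.931). Summed over the 3, CPM ran from 6435 to 12802 in the high class and from 4850 to 10061 in the low class. They were thus plentiful in both classes and are not particular to the high one. The name pituitary-marker for these libraries rests on the miRNAs that were used to choose them, with miR-7 alone of the remaining list in the higher direction past the thresholds.

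**Figure D3:**
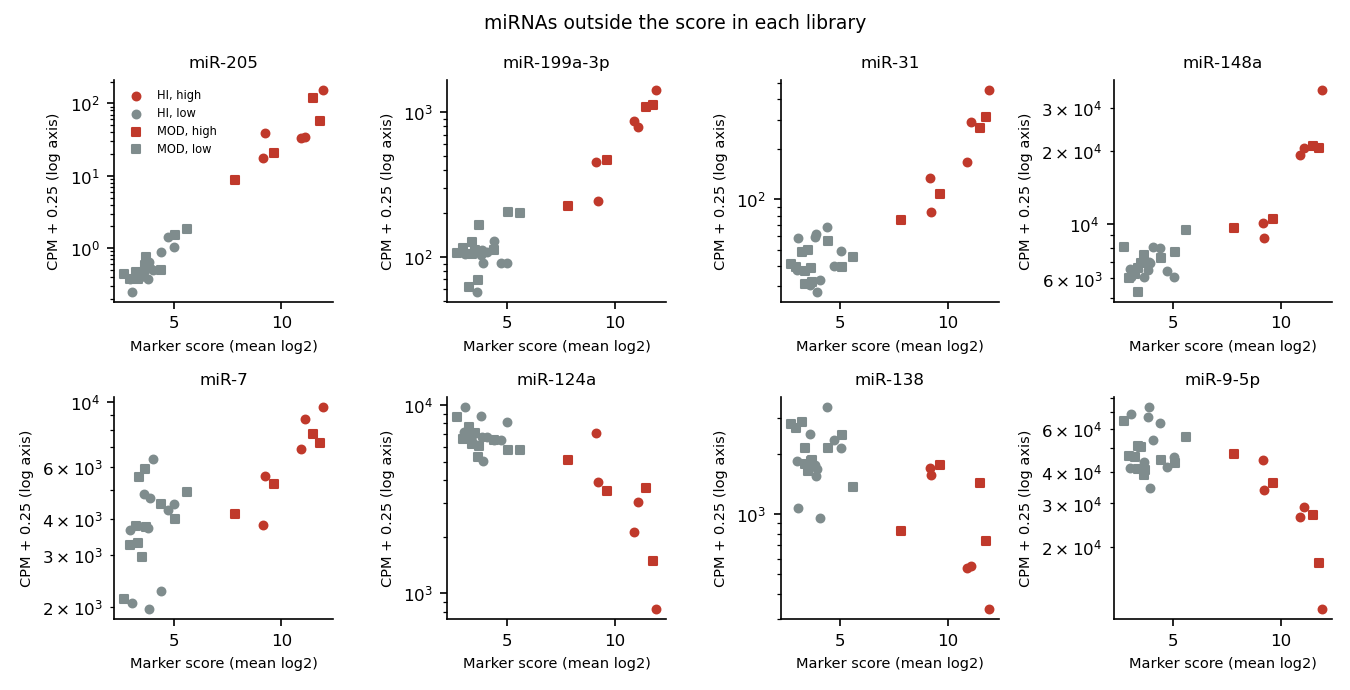
CPM + 0.25 on a log axis of 8 miRNAs outside the score against the marker score of each library, with HI calves as circles, MOD calves as squares and the 9 high libraries in red. miR-205, miR-199a-3p and miR-31 separate the classes, miR-148a and miR-7 overlap slightly or partly, and miR-124a, miR-138 and miR-9-5p are lowest in HI calf A37824, the library of highest score.

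Other miRNAs of high level also differed. miR-148a, which ran from 8752 to 35360.0 (median 19203) CPM in the high class and from 5295 to 9439.9 (median 6939) in the low class, differed by 1.17 ± 0.16 (limma, adjusted p = 6.60e-07). Its 5 highest libraries were the 5 of highest score, from 19203 to 35360.0 CPM, while the other 4 lay between 8752 and 10471 CPM, close to the top of the low class. miR-143, a miRNA of smooth muscle and among the 5 most abundant here, ran from 43894 to 313867 (median 189730.0) CPM against 34309.6 to 184692 (median 86998) and differed by 1.08 ± 0.26 (adjusted p = 0.00107), and its range in the high class covered nearly all of the low class.

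The smooth muscle and endothelium list had 1 of 4 members higher, which was miR-143. miR-145, made from the same transcript as miR-143, differed by 0.47 ± 0.16 (adjusted p = 0.0125), short of the fold threshold. The 2 arms of the endothelial miR-126 differed by 0.11 and -0.05. The remaining most abundant miRNAs gave 0.02 for miR-26a, 0.07 for miR-181a and 0.03 for miR-127 on the log2 scale, none past the test.

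Neuron miRNAs went the other way: 7 of the 12 tested were lower in the high class and 0 higher, with a median log2 difference of -0.73. miR-124a, the most typical miRNA of neurons, ran from 826 to 7058 (median 3478) CPM in the high class and from 5013 to 9705 (median 6601) in the low class. In order of falling score its CPM in the high libraries was 826, 1492, 3629, 3058, 2105, 3478, 3883, 7058 and 5128. Of the 9, 7 were below every low library and the others lay within the low range. The log2 difference was -1.23 ± 0.21 (limma, adjusted p = 2.29e-05). miR-124b had identical values and is the same measurement, so that the 7 lower names are 6 separate ones.

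miR-138, a brain miRNA found in dendrites, ran from 336 to 1764 (median 821) CPM in the high class and from 952 to 3407 (median 1869.7) in the low class, a difference of -1.08 ± 0.23 (limma, adjusted p = 2.13e-04). miR-9-5p, a miRNA of neural progenitors and neurons and one of the 5 most abundant here, ran from 11292 to 47439 (median 28948) CPM against 34503 to 73041 (median 46321), a difference of -0.82 ± 0.17 (adjusted p = 1.89e-04). For these 5 and 6 of the 9 high libraries, respectively, lay below all low libraries. The other arm, miR-9-3p, differed by -0.88, miR-128 by -0.77 and miR-137 by -0.70, all past the test. Within the deeper libraries alone none of these 5 passed, at -0.54 for miR-138, -0.54 for miR-9-5p, -0.51 for miR-9-3p, -0.44 for miR-128 and -0.33 for miR-137.

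The other 5 measured members of the neuron list did not pass: miR-153 at -0.34, miR-218 at -0.06, miR-129-3p at -0.08, and miR-129 and miR-129-5p, which had identical values, at 0.32. Summed over the list, CPM ran from 24711 to 71672 in the high class and from 61652 to 101092 in the low class. Neuron miRNAs were thus present in every library labelled ARC, those of the high class included.

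Oligodendrocyte miRNAs, which take part in the formation of myelin, were lower for 3 of the 3 tested, with a median log2 difference of -0.83. miR-219-5p ran from 56.7 to 357 (median 123) CPM in the high class and from 96.4 to 912 (median 185) in the low class, a difference of -0.88 ± 0.32 (limma, adjusted p = 0.0205), with 3 of 9 high libraries below all low ones. miR-219-3p differed by -0.83 and miR-338 by -0.60. Without HI calf A37824 2 of the 3 passed. Among the deeper libraries alone, and among the calves outside the 9 lowest animal codes alone, 0 of the 3 passed, and miR-219-5p differed by -0.29 and -0.33.

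**Figure D4:**
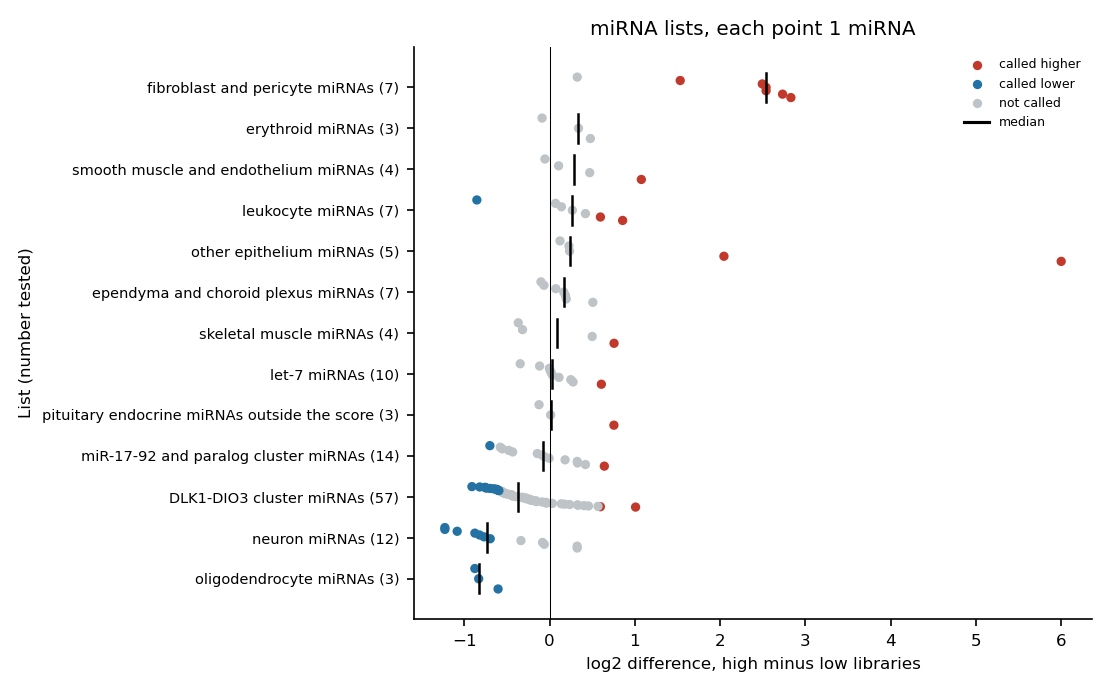
The log2 difference (high minus low) of each member of 13 miRNA lists, with members that passed as higher in red, those that passed as lower in blue, the others in grey, and the median of the list as a black bar. Fibroblast and pericyte miRNAs lie furthest right as a list (median 2.54) and oligodendrocyte and neuron miRNAs furthest left (medians -0.83 and -0.73).

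Several lists showed little. Of 7 miRNAs of the ependyma and choroid plexus, which line and fill the ventricles beside the ARC, 0 were higher and 0 lower, with a median of 0.17. Within the lowest animal codes alone 3 of the 7 were lower, beside 75 of all 488 other miRNAs. Their most abundant member, miR-204, differed by -0.10 ± 0.11 (limma, adjusted p = 0.458). Their ciliated-cell member miR-34c ranged from 54.1 to 4287 (median 1768) CPM within the low class alone. Of 3 erythroid miRNAs, a measure of blood in the tissue, 0 passed in either direction (median 0.34). Within the other animal codes alone 1 of the 3 was higher, beside 36 of all 488 other miRNAs. miR-451 ran from 150.5 to 1588 (median 272) CPM in the high class against 135 to 454 (median 260.2) in the low class.

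Leukocyte miRNAs were mixed, with 2 of 7 higher and 1 lower. miR-155 was higher by 0.60 and miR-223, a miRNA of myeloid cells at only a few CPM, by 0.86, while miR-150, a miRNA of mature lymphocytes, was lower at -0.85. The call of miR-155 lies at the fold threshold and was lost when any one of 8 libraries was left out, and on plain read totals. Within the shallower libraries alone 0 of the 7 were higher. Of the skeletal muscle miRNAs 4 of 8 were measured well enough to test, and 1 was higher, miR-133a at 0.76. It did not pass on plain read totals (0.52), where miR-499 was lower at -0.60, or within the lowest animal codes (0.67).

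miRNAs of the DLK1-DIO3 imprinted cluster, which are made in neurons and in the pituitary among other tissues, had a median log2 difference of -0.37: of the 57 tested, 46 (80.7%) had a negative log2 difference, against 54.5% of all other miRNAs tested, and 12 (21.1%) passed as lower and 2 as higher. Without HI calf A37824 these counts were 6 lower (10.5%) and 1 higher, where 9.22% of all other miRNAs were lower, so that the share of lower calls was then near that of the others. The member with the highest difference was miR-493, with 52.7 to 110.4 (median 69.1) CPM in the high class and 24.8 to 49.97 (median 39.0) in the low class, no overlap, and a difference of 1.01 ± 0.13 (limma, adjusted p = 2.54e-07). On plain read totals 29 of the 57 members were lower and 1 higher, where 124 and 28 of all 488 other miRNAs were. Within the shallower libraries 19 members were lower and 1 higher (87 and 54 of the 488). Within the lowest animal codes 17 were lower and 5 higher (75 and 62). The deeper libraries alone gave 1 lower and 2 higher (11 and 25). The other animal codes gave 2 lower and 1 higher (29 and 36).

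The clusters of miR-17-92 and its paralogs had 1 of 14 members higher and 1 lower (median -0.07), miR-25 at 0.64 and miR-18b at -0.70. The let-7 family had 1 of 10 higher and 0 lower (median 0.03), let-7i at 0.61. On plain read totals 5 of the 14 members of the miR-17-92 clusters were lower and 0 higher (median -0.31). In that setting 124 of all 488 other miRNAs were lower (median -0.27). Within the shallower libraries 4 members were lower, beside 87 of the 488, and within the lowest animal codes 4, beside 75. The calls of miR-25, miR-18b and let-7i were each lost on leaving out HI calf A37824.

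Beyond the lists, chosen here after their values were seen, 2 groups of neighbouring miRNA genes held several higher miRNAs, where 10.2% of all other miRNAs were higher. miR-224, miR-452 and miR-3431, whose precursors lie within 10 kb of each other in RefSeq, were all higher, by 1.03, 0.72 and 0.92. In the neighbourhood of miR-424, miR-503, miR-450 and miR-542, 4 of 7 tested miRNAs were higher, 3 did not pass, and the 7 differences lay between 0.35 and 1.12. The neighbouring genes of miR-363, miR-106a, miR-20b and miR-18b had a median of -0.53, with 1 of 4 lower and 0 higher. In the group of miR-188, miR-362, miR-500, miR-502, miR-532 and miR-660, 0 of 8 were higher and 0 lower (median 0.14). miR-424-5p, for example, ran from 282 to 1033 (median 553) CPM in the high class and from 204 to 439 (median 274) in the low class. Of the bovine miR-2284 and miR-2285 families, whose many near-identical copies can share reads, 8 of 58 tested members (13.8%) were higher and 0 (0%) lower, beside 10.2% and 13.5% of all other miRNAs.

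Of the further miRNAs with the most marked differences, miR-1911 was higher by 1.19 ± 0.28 (limma, adjusted p = 8.62e-04), with 75.8 CPM in HI calf A37824 and at most 37.0 in the other high libraries. It did not pass within the deeper libraries (0.81) or the other animal codes (0.48), and differed by 2.34 within the lowest animal codes. On the lower side, miR-551b, miR-1224, miR-346, miR-1251, miR-187, miR-3956 and miR-6521 fell by between 0.90 and 1.11 on the log2 scale. Within the deeper libraries alone miR-3956 passed and the other 6 did not, with values from -0.52 (miR-187) to -0.24 (miR-1251), and miR-6521 did not pass in MOD calves alone (-0.60). miR-3956, for example, ran from 12.1 to 32.4 (median 21.6) CPM in the high class and from 30.2 to 61.2 (median 40.1) in the low class, with 6 of 9 high libraries below all low ones.

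The 9 high libraries did not share these differences equally. Of the 50 miRNAs called higher, HI calf A37824 lay above all low libraries in 47, MOD calf A41971 in 46, HI calf A17855 in 44, MOD calf A73759 in 42 and HI calf A31979 in 41. The other 4 did so in fewer: 28 each for MOD calf A57867 and HI calf A42931, 24 for MOD calf A21978 and 13 for HI calf A93744. Each low library, set against the other 20, did so in at most 8. The 50 were called on these same libraries, so that this is a description of how the calls are spread and no test of them.

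The same 5 libraries led for the lower miRNAs. Of the 66, HI calf A37824 lay below all low libraries in 62, MOD calf A41971 in 54, HI calves A31979 and A17855 in 51 each and MOD calf A73759 in 39. The counts were 17 for MOD calf A21978, 12 for HI calf A42931, 10 for MOD calf A57867 and 9 for HI calf A93744, against at most 13 for a low library. The median log2 distance of the 66 from the low median was -1.75 in HI calf A37824 and -0.24 in HI calf A93744, and that of the 50 higher miRNAs was 1.48 and 0.30 in the same 2 libraries. The 5 libraries of highest score thus lay below all low libraries most often. Without HI calf A37824 35 miRNAs were higher and 45 lower, and without MOD calf A41971 39 and 51. Leaving out HI calf A17855, HI calf A31979 or MOD calf A73759 gave 63, 64 and 62 lower. Leaving out the 5 together was not tested.

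No label gives a batch, and the differences were next taken within subsets of the 30 libraries drawn here by read total and by animal code. The 2 splits overlap, since all 9 libraries of the lowest animal codes were shallower and all 9 deeper libraries had other animal codes, so that depth and code cannot be fully told apart. Among the shallower libraries 54 other miRNAs were higher and 87 lower, and among the deeper libraries, with 3 high against 6 low, 25 and 11. Among the calves with the 9 lowest animal codes 62 were higher and 75 lower, and among the others 36 and 29. Of the 50 miRNAs higher over all libraries 19 were called in each of these 4 subsets, and of the 66 lower 7 were. The sign was the same in the 4 subsets and in each diet for 49 of the 50 and 66 of the 66, but these miRNAs were called on the same libraries, so that this is no independent check.

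miR-199a-5p differed by 2.76 to 2.99 on the log2 scale over the 4 subsets and miR-31 by 1.71 to 2.19. Values of the neuron miRNAs spread more widely over the subsets. miR-124a differed by -1.73 among the lowest animal codes and by -0.72 among the deeper libraries. Of the 12 neuron miRNAs, 2 were lower within the deeper libraries, beside 11 of all 488 other miRNAs. These were miR-124a and its identical copy miR-124b and so 1 measurement. Within the other animal codes 4 were lower (29 of the 488) and within the shallower libraries 7 (87 of the 488). Within the lowest animal codes 6 were lower (75 of the 488) and 2 others higher (62 of the 488). The copy miR-124b is counted among the lower ones in each subset.

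**Figure D5:**
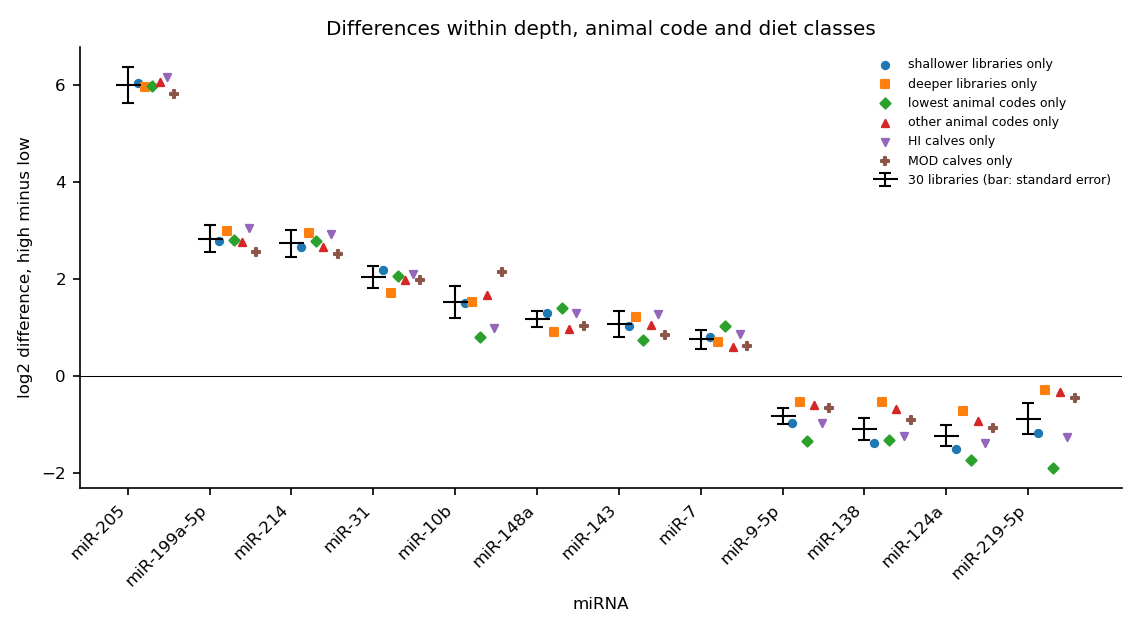
The log2 difference (high minus low) of 12 miRNAs over all 30 libraries (black, with its standard error) and within the shallower or deeper libraries, the lowest or other animal codes, and HI or MOD calves alone. miR-199a-5p lies between 2.57 and 3.06 in every subset, while miR-219-5p runs from -1.89 to -0.29.

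Finally, the high minus low difference was compared between the diets. Within HI calves alone (5 high, 10 low) 50 other miRNAs were higher and 66 lower, and within MOD calves alone (4 high, 11 low) 46 and 51. The interaction of class and diet was called for 0 of the 488 by limma, with 14 at an unadjusted p below 0.05, and for 0 by edgeR's quasi-likelihood test, with 17. The smallest adjusted p was 0.540 (limma), for the leukocyte miRNA miR-142-3p, which differed by -0.15 in HI and 0.46 in MOD calves. miR-142-5p gave -0.20 and 0.38, and with HI calf A42931 left out 2 interactions passed, the smallest adjusted p being 0.0870 for miR-142-5p. With MOD calf A41971 left out 1 passed, miR-142-3p (adjusted p = 0.0960).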

How the data were processed

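Total RNA of ARC tissue from 30 calves was sequenced as small RNA libraries. According to the methods of the study, reads of miRNA length were kept after adapter removal and counted per miRNA with miRDeep2, miRBase and the ARS-UCD1.2 genome. The submitters' processing notes list FastQC 0.11.8, cutadapt 2.6, R 3.4 and edgeR 3.5, and the labels name a stranded RNA kit, which differs from the methods. The deposited values are a signal made by the authors from these counts, CPM scaled by TMM factors, for 1030 miRNAs, of which 167 had no read. Whole reads were recovered from the steps between low values, and 94.5 to 97.9% of values under 200 reads came out whole within 0.1 read.

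The score, the classes, the lists, the thresholds and the animal code split were chosen with earlier results of these data known. limma 3.58.1 (R 4.3.3) was fitted to log2(CPM + 0.25) with diet and class as terms and a trended prior, over 497 miRNAs that reached 1.16 CPM, worth 10 reads in a library of median depth, in 9 or more libraries. Differences on this scale, high minus low, understate the change of low miRNAs. edgeR 4.0.16 and DESeq2 1.42.0 on the recovered reads, other scalings, filters and subsets of libraries were alternatives, and the restrictions to deeper libraries and to either animal code class and the filter on low libraries were added after seeing the data. The procedure was also run on simulated counts, in which a changed miRNA differed alike in all high libraries. The differences here are graded between the high libraries, so that run does not bear on them. Libraries were split into shallower and deeper at the widest gap in read totals.

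The miRNAs named were the score miRNAs and partners, the 10 highest and 10 lowest differences among called miRNAs with a mean of at least 10 CPM, up to 4 members of each list by mean level, and the 5 most abundant. Others were named as examples or after their values were seen. Closeness of precursors came from RefSeq positions (ARS-UCD2.0), found for 492 of the 497. Mature sequences were not used here. Of 435 pairs of libraries the most alike still differed far beyond counting noise (chi-square over degrees of freedom, 83.8), so each was used as a sample of its own.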

Additional observations from a re-analysis of the deposited data

Results flagged for a closer look

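Within the 9 high libraries, 65 of the miRNAs named were examined for a single library far from the other 8, and 5 were found, where chance alone flags about 1 group in 20. miR-10a was at 649.8 CPM in MOD calf A73759 against 68.4 to 149 in the others. miR-127, of the DLK1-DIO3 cluster, was at 94487 CPM in HI calf A17855 against 38074 to 44849. miR-126-5p was at 11372 CPM in HI calf A93744 against 16325 to 23668, and miR-19b at 488 CPM in the same library against 635 to 751. miR-212 was at 202 CPM in HI calf A42931 against 251 to 309.9.

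miR-122, a liver miRNA that was looked at because its outlying value had been seen and is not among the 65, was at 14.2 CPM (307 reads) in MOD calf A57867 against 0 to 0.992 CPM in the other high libraries, and the next highest of all 30 libraries held 2.69 CPM. No other library approached this level, and its source was not tested.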

How the results depend on the processing

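The counts of 50 higher and 66 lower miRNAs moved by more than 1.5 times under these settings. On plain read totals 28 were higher and 124 lower, and all 28 and 66 of the 124 were shared with the main result. At an adjusted p below 0.05 and a fold above 2 there were 19 and 7. With the score as a continuous covariate, where no fold threshold applies, there were 134 and 172. Among the deeper libraries, with fewer samples, there were 25 and 11, and among the other animal codes 29 lower. Leaving out each library in turn gave 35 to 56 higher, 45 to 83 lower and 0 to 2 interactions with diet. The fewest calls came without HI calf A37824, and the most lower calls, 83, without HI calf A93744. Of the 50 and 66, 33 and 44 were called on leaving out each single library, and 17 and 7 under each of 30 omissions and of 18 settings that keep the thresholds and the filter. edgeR's quasi-likelihood test gave 57 and 57, the DESeq2 Wald test 59 and 50, TMM without the score miRNAs and partners 46 and 66, and a minimum in 9 low libraries 45 and 66. Counting identical miRNAs once left 50 and 65. The causes of these changes, beyond the settings' own construction, were not tested.

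Of the miRNAs named by level, list or size of difference, none that passed the test changed sign under any setting run. This was not looked at for those named as examples or after their values were seen. Over all 50 higher calls the sign held in the 4 subsets and each diet for 49. The 2 classes follow values, 1 calf gave 1 library, and the precision of miRNAs at a few reads, such as miR-205 in the low class, is limited by counting. No paired analysis was possible because each calf received 1 diet and replicate numbers only follow accession order.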
